A study of Mus musculus with 16 samples.

Results

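The Ly6 surface antigen genes described here are Ly6a, Ly6c1, Ly6c2, Ly6e, Ly6i and Ly6d, 6 of the 53465 genes in the count table, matched by symbol. They lie within 350 kb of chromosome 15 and were selected on Ly6a CPM, which was higher in aPD-1 non-responder tumors (385 ± 71.5 CPM, which are counts scaled to a common library size; mean ± SD, n = 6) than in IgG control tumors (235 ± 56.4, n = 8). That difference is therefore given as a description with no test, as is every non-responder against IgG value of the other members. Bulk RNA-seq was measured in 16 tumors of MC38, a mouse colon adenocarcinoma line, grown from injected cells under the skin of the right flank of female C57BL/6 mice aged 6 to 8 weeks. Mice whose tumor measured 150 to 250 mm3 on day 16 received 200 µg of control IgG (8 tumors) or of antibody against PD-1 (8 tumors) on days 16 and 20, and tumors were taken on day 21. The study designated 2 of the aPD-1 tumors as responders from their staining for CD8 T cells, and the other 6 as non-responders. Responder status was thus set on the infiltrate of the same tumors, after treatment, and the aPD-1 responder group holds 2 mice. RNA came from 2 sections of 100 µm through the frozen part of each tumor, so the tumor, its stroma and its infiltrating cells were measured together, and fewer cells of a type cannot be told apart from less RNA per cell.

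Ly6 proteins are small, disulfide-rich molecules tethered to the outer cell membrane by a glycolipid (GPI) anchor, and many were first known as antibody markers of blood cell types. Ly6a encodes Sca-1, a marker of hematopoietic stem cells that interferons induce in many other cells. Ly6c1 and Ly6c2 together encode Ly6C, found on inflammatory monocytes, on memory T cells and, for Ly6c1, on endothelium. Ly6e is a broadly expressed interferon-stimulated gene whose product restricts the entry of some viruses, and Ly6d marks B-lineage lymphoid progenitors and stratified epithelium.

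In GRCm38 coordinates, Ly6d (chr15:74762056-74763620, minus strand) lay at one end of the group. It was followed by Ly6e (chr15:74955051-74959905, plus strand), Ly6i (chr15:74979534-74983430, minus strand), Ly6a (chr15:74994877-74998031, minus strand), Ly6c1 (chr15:75044018-75048830, minus strand) and Ly6c2 (chr15:75108158-75111970, minus strand). Ly6a, Ly6c1, Ly6c2 and Ly6i formed a closely related set, in which Ly6c1 and Ly6c2 were nearest to each other. Their coding sequences were 97.7% identical over 393 aligned positions, and their transcripts shared an identical run of 188 bases, longer than the sequencing reads of 150 bases. Counts of Ly6c1 and Ly6c2 were not whole numbers in 16 of 16 tumors, so reads were divided between genes by the authors' estimate, whereas counts of the other 4 members were whole in every tumor. Ly6a and Ly6i were 86.3% identical in coding sequence with a longest shared run of 80 bases, and Ly6a and Ly6c1 were 81.8% identical with a run of 118 bases. Ly6e and Ly6d were at most 53.5% identical to any other member.

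Promoter sequences were at hand for Ly6c1 and Ly6c2, and not for Ly6a, Ly6e, Ly6i and Ly6d. They are shown because these near copies were measured at very different levels. Each sequence holds the 250 bases before the start furthest upstream (RefSeq, GRCm38.p6, minus strand), at chr15:75048838-75049087 for Ly6c1 and chr15:75111972-75112221 for Ly6c2. Capitals mark bases that differ from the other sequence, stand opposite a gap or lie outside the overlap.
Ly6c1: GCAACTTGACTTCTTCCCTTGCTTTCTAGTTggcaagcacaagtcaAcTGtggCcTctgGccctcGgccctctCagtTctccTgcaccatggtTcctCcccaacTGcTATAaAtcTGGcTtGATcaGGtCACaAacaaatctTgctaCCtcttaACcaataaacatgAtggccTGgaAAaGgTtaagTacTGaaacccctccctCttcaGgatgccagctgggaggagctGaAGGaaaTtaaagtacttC
Ly6c2: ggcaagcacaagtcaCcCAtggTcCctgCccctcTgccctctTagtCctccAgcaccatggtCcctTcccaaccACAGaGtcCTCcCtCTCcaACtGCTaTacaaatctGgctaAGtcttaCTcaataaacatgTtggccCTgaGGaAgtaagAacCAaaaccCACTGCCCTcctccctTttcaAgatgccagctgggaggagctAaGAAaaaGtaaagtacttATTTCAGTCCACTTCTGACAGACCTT
The windows overlapped over 228 aligned positions, of which 164 (71.9%) were identical, 52 were mismatched and 12 were opposite gaps. Neither the interferon-stimulated response element, searched as TTTCNNTTTC on both strands, nor the gamma-activated site, searched as TTCNNNGAA, which reads the same way on both strands, was found in the 250 bases of either gene or in the window of a further start of each. Among all 32851 promoter windows of that length, 2.98% held the former motif and 7.02% the latter. The absence of these letters from the windows says nothing of whether such factors act on the genes.

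Total counts lay between 26603449 and 39948866 per tumor, and 18251 genes passed the filter on low counts, all 6 members among them. In 3 tumors (IgG control replicate 1 and aPD-1 non-responder replicates 9 and 14), 5.74 to 7.6% of counts came from mitochondrial genes, against 2.52 to 3.25% in the other 13. IgG control replicate 3 had 20.4% of its counts in 1 transcript, CT010467.1, against at most 0.489% for the leading gene of any other tumor. Markers of colon epithelium were low outside the responders, at a summed 4.61 to 11.6 CPM over 8 genes, and Cdx2, an intestinal identity gene named after its values were seen, averaged 0.00162 CPM.

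Per kb of the longest coding transcript, Ly6a and Ly6e were the most abundant members. Over the 16 tumors, the level of Ly6a was 329 ± 105 CPM per kb (mean ± SD) and that of Ly6e 255 ± 58.9. Ly6a was above Ly6e in 11 of 16 tumors, namely 3 of 8 IgG controls and every aPD-1 tumor, so the order of these neighbors did not hold in the controls. Ly6c1 followed at 108 ± 34.5 CPM per kb, below Ly6e and above Ly6c2 in all 16 tumors. Ly6c2 stood at 15.4 ± 19.5 CPM per kb, Ly6d at 9.26 ± 26.3 and Ly6i at 2.11 ± 2.36. The SD of each of these last genes exceeded its mean. Ly6c2 was above Ly6d in 15 of 16 tumors, the exception being a responder, and Ly6d was above Ly6i in 6 of 16, so Ly6d and Ly6i had no stable order. With exon length over all annotated transcripts in place of the longest coding transcript, Ly6d (9.26) ranked above Ly6c2 (4.61 CPM per kb) and the other ranks were the same.

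**Figure D1:**
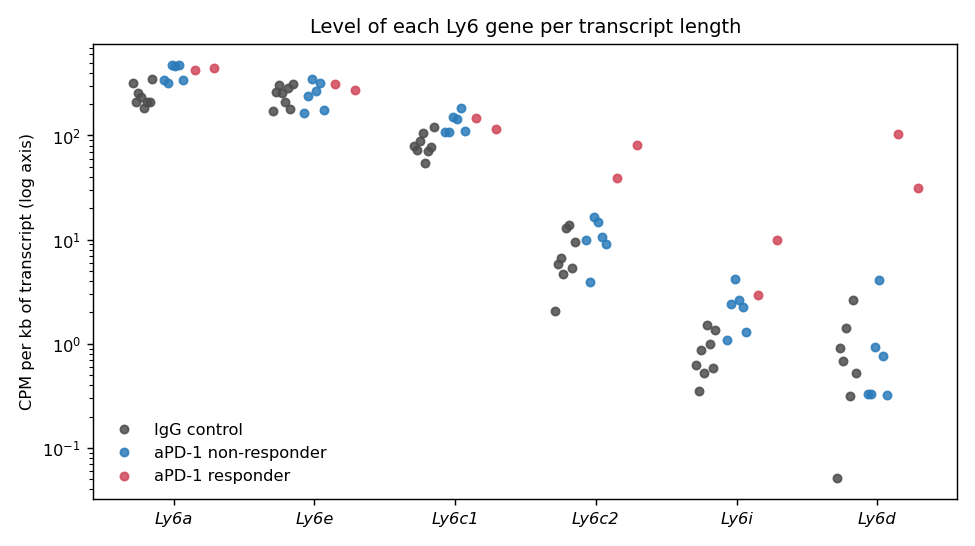
Level of each Ly6 gene in CPM per kb of the longest coding transcript (vertical log axis), with 1 point per tumor colored by group; the IgG control tumor with 0 Ly6d counts is not drawn. Ly6a and Ly6e lie at the top, Ly6c1 below them, and the responders alone stand apart for Ly6c2 and Ly6d.

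Ly6a, the Sca-1 gene, was higher in aPD-1 tumors of both kinds than in most controls. IgG control tumors ranged from 177 to 333 CPM with a median of 212, and aPD-1 non-responder tumors from 306 to 457 with a median of 385. The responders measured 408 and 428 CPM. The non-responders fell into 3 tumors between 441 and 457 CPM (replicates 11, 12 and 13), above every control, and 3 between 306 and 328 (replicates 9, 10 and 14), which overlapped the controls through IgG control replicates 1 (308) and 8 (333). As a description, the fitted log2 fold change of non-responders over IgG controls was 0.71 (SE 0.15), a 1.64-fold higher level, and it lay between 0.66 and 0.80 when each tumor was left out in turn. Without the 3 tumors of high mitochondrial share it was 0.88.

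The responders' Ly6a stood above all 8 controls and inside the range of the non-responders. Against IgG controls the log2 fold change was 0.83 (SE 0.21), with an adjusted p of 0.00814 (edgeR's quasi-likelihood test, Benjamini-Hochberg adjustment over 18251 genes). This passed the p threshold of 0.05 and fell short of the log2 fold change of 1 that a call also required. It did not pass the p threshold without responder replicate 15 (0.79, edgeR adjusted p = 0.123) or 16 (0.74, adjusted p = 0.0832). Against non-responders it was 0.12 (SE 0.23, edgeR adjusted p = 0.787), with a 95% interval from -0.33 to 0.57, which leaves room for a difference of up to 0.57 in the responders' favor. Both comparisons use a group of the contrast that chose the gene.

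**Figure D2:**
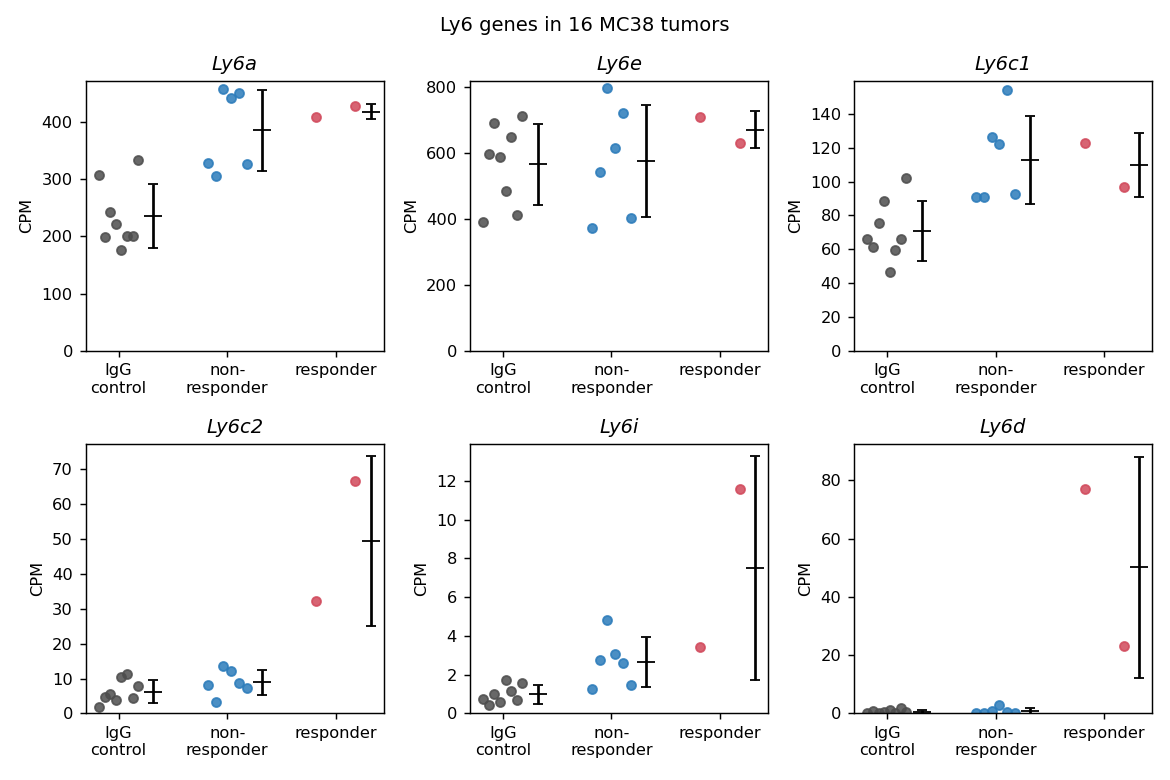
CPM of each Ly6 gene (vertical axis, linear from 0, a scale of its own per panel) in the IgG controls (8), aPD-1 non-responders (6) and aPD-1 responders (2); each point is 1 tumor, and the bar gives mean and SD. Responders exceed all other tumors for Ly6c2 (32.3 and 66.6 CPM) and Ly6d (77.1 and 23.3 CPM), and for Ly6a, Ly6e and Ly6c1 they lie inside the non-responders' range.

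Ly6c1, the more abundant of the Ly6C genes, was likewise higher in most aPD-1 tumors than in most controls. It measured 46.4 to 102 CPM in IgG controls (median 66.2), 90.7 to 154 in non-responders (median 107), and 123 and 96.6 CPM in the responders. Its fitted log2 fold change of non-responders over controls was 0.67 (SE 0.17), given as a description. One control, replicate 8, reached into the range of both aPD-1 groups, and the responders were spread within the non-responders. Neither responder comparison passed, at a log2 fold change of -0.04 (SE 0.26, edgeR adjusted p = 0.943, 95% interval -0.54 to 0.46) against non-responders and 0.63 (SE 0.24, adjusted p = 0.0657) against IgG controls.

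Ly6c2, the near copy of Ly6c1 that encodes the other form of Ly6C, was higher in the responders than in either other group. It measured 1.71 to 11.4 CPM in IgG controls (median 5.13) and 3.19 to 13.6 in non-responders (median 8.41). The responders measured 32.3 and 66.6 CPM, both above every other tumor. The log2 fold change was 2.48 (SE 0.51, edgeR adjusted p = 0.00201) against non-responders, a 5.56-fold higher level, and 2.98 (SE 0.47, adjusted p = 0.000153) against IgG controls. Non-responders differed from controls by 0.5 (SE 0.37), as a description. Ly6c2 made up 0.223 to 1.47% of the summed Ly6 CPM in controls, 0.338 to 1.02% in non-responders, and 2.38 and 5.3% in the responders. The sum of the 6 genes, at 1354 and 1256 CPM in the responders, lay inside the non-responders' range of 799.6 to 1400. The call against non-responders was lost without responder replicate 16, at a log2 fold change of 1.81 (edgeR adjusted p = 0.0664). When the reads of Ly6c1 and Ly6c2 were summed into 1 gene, the log2 fold change against non-responders was 0.39 (adjusted p = 0.275), as Ly6c1 supplied most of the sum, and that against IgG controls was 1.05 (adjusted p = 0.00146).

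Ly6i, a low-expressed gene beside Ly6a, was higher in the responders than in the controls. IgG controls measured 0.41 to 1.75 CPM (15 to 61 counts, median 0.866 CPM) and non-responders 1.25 to 4.84 CPM (41 to 168 counts, median 2.69). The responders measured 3.43 and 11.6 CPM. Responders were above all controls, with a log2 fold change of 2.92 (SE 0.48, edgeR adjusted p = 0.000215), while replicate 15 lay below the highest non-responder. Against non-responders the log2 fold change of 1.49 (SE 0.52) had an adjusted p of 0.0547, on the failing side of the threshold. It passed with DESeq2 (adjusted p = 0.0409), with total counts in place of TMM scaling (0.0469), and without IgG control replicate 1 (0.0495) or 2 (0.0472) or non-responder replicate 11 (0.0261). It rested on responder replicate 16, without which it was 0.31 (adjusted p = 0.832), while it was 2.04 (adjusted p = 0.0546) without replicate 15 and 0.13 (adjusted p = 0.754) with reads of Ly6a and Ly6i summed. The log2 fold change of non-responders over controls was 1.43 (SE 0.38) as a description, the highest of the 6 members, and 4 of 6 non-responders were above every control. The call against IgG controls was lost without responder replicate 16, at 1.74 (adjusted p = 0.052). It was also lost with reads of Ly6a and Ly6i summed into 1 gene, at 0.85 (adjusted p = 0.00691), where Ly6a supplied most of the sum.

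Ly6e, the broadly expressed member, overlapped between the groups. It measured 392 to 711 CPM in IgG controls (median 591), 371 to 796 in non-responders (median 577), and 710 and 630 CPM in the responders. No group lay above or below another throughout. The log2 fold change was 0.22 (SE 0.27, edgeR adjusted p = 0.648, 95% interval -0.31 to 0.76) for responders against non-responders and 0.25 (SE 0.26, adjusted p = 0.565, 95% interval -0.27 to 0.76) against IgG controls. For non-responders against controls it was 0.02 (SE 0.18) as a description, and between -0.09 and 0.12 with each tumor left out in turn. The 3 tumors with the high mitochondrial share had the 3 lowest Ly6e levels of all, 371 to 403 CPM, below the 413 to 796 CPM of the other 11 control and non-responder tumors. Without them the responder to non-responder log2 fold change was -0.05 (adjusted p = 0.871) in place of 0.22. The part of RNA quality in these levels was not tested.

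Ly6d, the gene of B-lineage progenitors and stratified epithelium, showed the widest difference of the 6 members. It was near the limit of detection in most controls, at 0 to 1.97 CPM (0 to 70 counts, median 0.449 CPM). In IgG control replicate 3 its count of 0 allows a level of up to 0.112 CPM, from 3 counts, a limit that covers counting error only. Non-responders measured 0.237 to 3.01 CPM (median 0.405). The responders measured 77.1 CPM (2607 counts) and 23.3 CPM (827 counts), above every other tumor. The log2 fold change was 5.88 (SE 0.97, edgeR adjusted p = 0.000357), or 59-fold, against non-responders and 6.33 (SE 0.89, adjusted p = 5.5e-05) against IgG controls, and 0.44 (SE 0.75) for non-responders against controls, as a description. Non-responder replicate 12 set the sign of that last value, which was -0.63 without it. The responder to non-responder value lay between 4.72 and 6.95 with each tumor left out in turn, and the call held in each such fit.

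**Figure D3:**
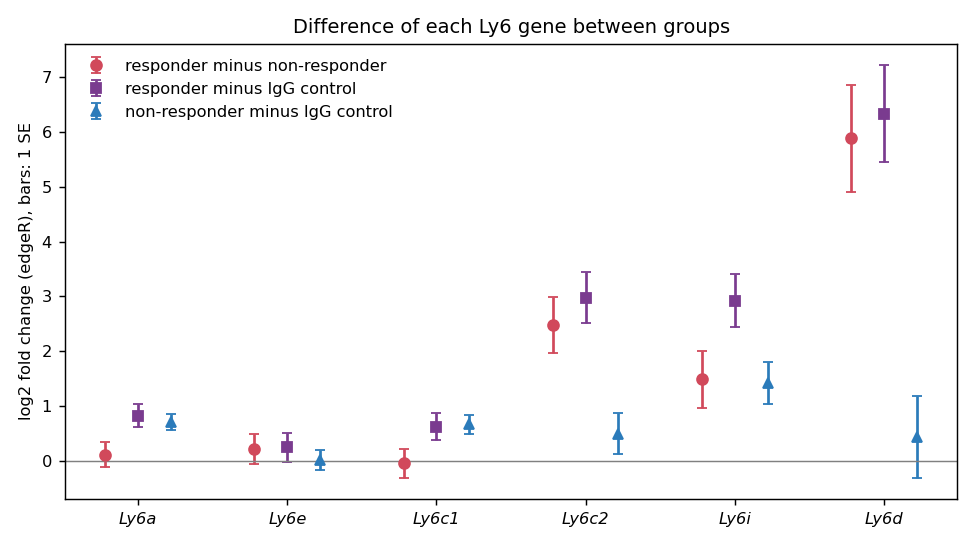
Fitted log2 fold change of each Ly6 gene (vertical axis; edgeR, all 16 tumors) for 3 differences between groups, with bars of 1 SE. Ly6d (5.88 and 6.33) and Ly6c2 (2.48 and 2.98) lie highest in the responder differences, Ly6e lies at 0.02 to 0.25 in each difference, and the responder minus non-responder values of Ly6a and Ly6c1 are 0.12 and -0.04.

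Over the 6 members, 2 (Ly6c2 and Ly6d) were called higher and 0 lower in responders against non-responders, a call requiring both an adjusted p under 0.05 and a log2 fold change over 1. Among all 18251 genes, 12.5% were called higher and 0.663% lower in that comparison, 15.4% passed the adjusted p alone upward and 4.34% downward, and in 21.5% both responders were above all non-responders, as in 2 of the 6 members. Against IgG controls, 3 members (Ly6c2, Ly6i and Ly6d) were called higher and 0 lower, beside 14.3% and 0.641% of all genes. With Ly6a, 4 members passed the adjusted p alone upward and 0 downward, beside 17.7% and 5.17%. The same 4 members had both responders above every control, beside 19.3%. The IgG controls belong to the contrast that chose Ly6a, so the choice bears on its place in both counts. Between non-responders and IgG controls edgeR called 0.0% of genes (694 genes at an unadjusted p below 0.05; 4 genes called by DESeq2). In that comparison all non-responders were above all controls in 0.0164% of genes and in 0 of the 6 members. The median log2 fold change of the members was 0.86 against 0.02 for all genes (responders against non-responders), 1.88 against -0.02 (responders against IgG) and 0.59 against -0.01 (non-responders against IgG, a value the choice of members bears on). These comparisons share their groups, so the counts are not separate pieces of evidence.

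Variation between tumors was then compared among the members over the 14 IgG control and non-responder tumors, on log2 CPM, since the responders formed a group of their own. Values of r over the 14 tumors include the difference between the groups on which the members were chosen, so they are a description with no test. Tests were made after the mean of each group was subtracted, by permutation within groups, and this was decided after seeing the data. Ly6a and Ly6c1 varied together most closely, with Pearson's r = 0.91 and Spearman's rho = 0.96 over the 14 tumors, and an r of 0.72 within the 8 controls and 0.93 within the 6 non-responders. With group means subtracted, r was 0.79 (adjusted permutation p = 0.0322 over 15 pairs), rho was 0.88 (adjusted permutation p = 0.0033), and r was 0.86 without the 2 tumors of most extreme Ly6a. Both genes fell into the same higher and lower sets of 3 non-responders, so the value within that group rests on these sets. Ly6a and Ly6i had r = 0.72 over the 14 tumors but 0.14 within the controls, and 0.34 with group means subtracted (adjusted permutation p = 0.46). No pair besides Ly6a with Ly6c1 passed the adjusted permutation test with group means subtracted. Ly6c1 and Ly6c2, although near copies, had r = 0.29 over the 14 tumors, -0.24 within the controls and 0.05 with group means subtracted (adjusted permutation p = 0.937).

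**Figure D4:**
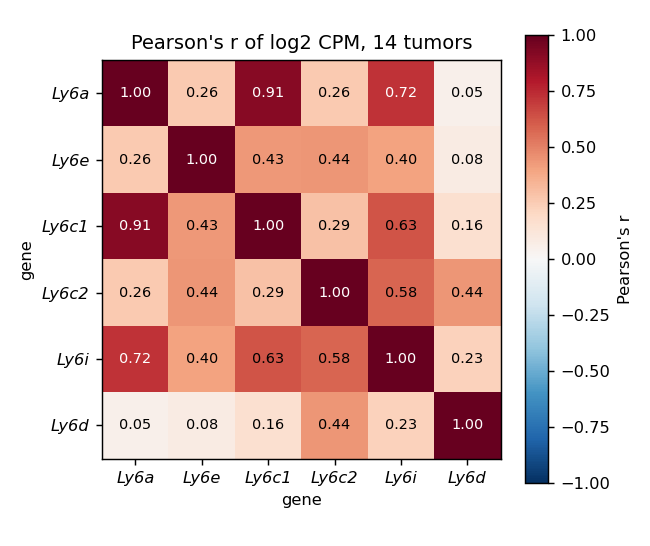
Pearson's r of log2 CPM for each pair of Ly6 genes (rows and columns) over the 14 tumors outside the responders; color runs from -1 to 1. The r of 0.91 for Ly6a with Ly6c1 is the highest, followed by 0.72 for Ly6a with Ly6i.

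Among the 12032 genes averaging 100 counts or more, those whose log2 CPM followed each member most closely over the same 14 tumors are named by Pearson's r, as a description with no test. For Ly6a these were Il18bp (r = 0.969), which encodes a binding protein that neutralizes interleukin-18, the guanylate-binding protein gene Gbp5 (0.968) and Ubd (0.965), a ubiquitin-like modifier. For Ly6c1 they were Itm2b (0.918), Cd274 (0.914), which encodes the PD-1 ligand PD-L1, and Ly6a itself (0.91). Ly6a was thus among the 3 closest of all genes searched to Ly6c1, with the difference between the groups included. For Ly6c2 they were Lfng (0.9), a glycosyltransferase acting on Notch, the lymphocyte receptor Ly9 (0.851) and Tm6sf1 (0.846). In the responders Ly9 measured 45.6 to 56.7 CPM, against 6.65 to 15.9 in the other tumors. For Ly6e they were Tagln2 (0.943), Dbnl (0.939), an actin-binding adaptor, and Tmbim6 (0.937). For Ly6i they were the hexokinase Hk3 (0.888), the T cell surface glycoprotein Cd6 (0.876) and the serpin Serpina3f (0.871). For Ly6d, present at few counts in these tumors, they were Rbks (0.934), Rab11a (0.898) and Nmd3 (0.866), none of them a gene of the lists used here.

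Genes induced by interferon gamma moved with Ly6a from tumor to tumor. Over the 14 tumors, as a description, Ly6a had r = 0.96 and rho = 0.91 with the mean log2 CPM of 20 such genes, with an r of 0.89 within the 8 controls and 0.97 within the 6 non-responders. With group means subtracted, r was 0.92 (adjusted permutation p = 0.0223 over 84 relations of a member with a list), rho was 0.72 (adjusted permutation p = 0.117), and r was 0.84 without the 2 tumors of most extreme Ly6a. In all, 6 of the 84 relations passed in this way on r and 0 on rho. Ly6a with 8 T cell genes had r = 0.76 (adjusted permutation p = 0.0435), with rho = 0.64 (adjusted permutation p = 0.16), and 0.69 within the controls. With 20 genes stimulated by type I interferon, Ly6a had r = 0.75 (adjusted permutation p = 0.0435), with rho = 0.64 (adjusted permutation p = 0.16), and 0.82 within the controls. The r of Ly6c1 and Ly6i with the interferon gamma list over the 14 tumors was 0.81 and 0.74, against 0.4 and 0.38 within the controls, and neither relation passed with group means subtracted. The summed level of the interferon gamma list was 2506 to 4258 CPM in controls, 3747 to 5773 in non-responders, and 4213 and 5884 in the responders. Its IgG control replicates 1 and 8, at 4112 and 4258 CPM, were the same tumors that carried the highest Ly6a of the controls.

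In the tested comparisons these lists stood as follows. Of the 20 interferon gamma genes, 1 passed the adjusted p between responders and non-responders, the class II transactivator Ciita (log2 fold change 2.71, SE 0.36, edgeR adjusted p = 3.7e-05), and Irf1 was lowest at -0.22 (adjusted p = 0.535). Against IgG controls 10 of the 20 passed, all higher, and that count was 2 without responder replicate 16 and 4 without replicate 15. Of the 20 type I genes, 1 passed against non-responders, Ifi27l2a (1.62, adjusted p = 0.00155), the lowest being Isg15 at -0.46 (adjusted p = 0.501), and 2 passed against IgG controls. Without responder replicate 15 the type I count was 0 in both comparisons, and against non-responders it was 2 without IgG control replicate 1 or 2. Ly6a, with 0.12 against non-responders and 0.83 against IgG controls, lay close to the interferon gamma list's medians of 0.12 and 0.79. The part of interferon in the Ly6a levels was not tested.

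**Figure D5:**
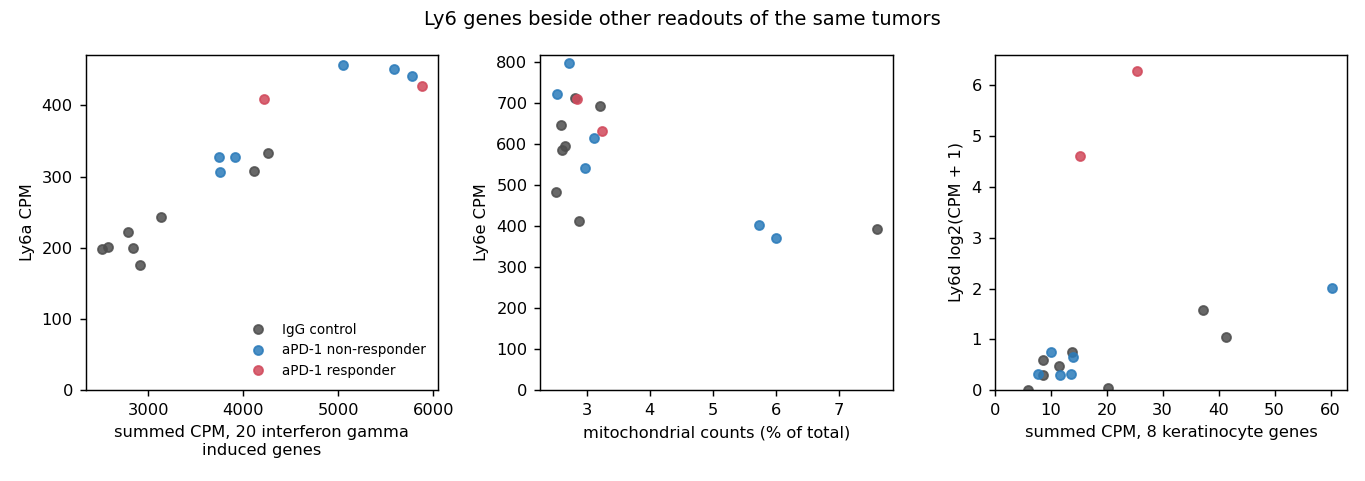
Left, Ly6a CPM against the summed CPM of 20 interferon gamma induced genes; middle, Ly6e CPM against the mitochondrial share of counts in percent; right, Ly6d as log2(CPM + 1) against the summed CPM of 8 keratinocyte genes. Each point is 1 of 16 tumors colored by group. The 3 tumors at 5.74 to 7.6% mitochondrial counts have the lowest Ly6e. The responders have the highest Ly6d, at keratinocyte sums inside the range of the other tumors.

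Markers of the cells that carry Ly6 proteins were read beside Ly6c2, Ly6i and Ly6d, and the part of any of them in these results was not tested. Of 8 T cell genes, 8 passed the edgeR test higher in responders than in non-responders (Cd4 highest at a log2 fold change of 4.35, Cd3g lowest at 3.01). Their summed levels were 8.25 to 37.7 CPM in all other tumors and 263 and 241 CPM in the responders. As the study designated responders from their staining for CD8 T cells, the grouping itself bears on this count. Of 8 B cell genes, 8 passed higher (Cd79b lowest at a log2 fold change of 6.14), with summed levels of 1.74 to 8.39 CPM in all other tumors and of 1287 and 343 CPM in responder replicates 15 and 16. Ly6d was 3.31 times higher in replicate 15 than in 16, and the B cell sum 3.75 times higher. Among other lists, the adipocyte (5.66 times), colon epithelium (2.24), endothelial (1.86) and keratinocyte (1.68) sums were also higher in replicate 15. The macrophage (1.28), plasma cell (1.23), fibroblast (1.2) and T cell (1.09) sums were higher there by less. Ly6c2 and Ly6i ran the other way, 2.07 and 3.38 times higher in replicate 16. So did the neutrophil sum, at 21.4 CPM in replicate 15 and 41.1 in replicate 16, and the skeletal muscle sum (3.76 times). The interferon gamma (1.4 times), monocyte (1.27) and type I interferon (1.23) sums were also higher in replicate 16. Over the 14 other tumors with group means subtracted, Ly6d had r = -0.11 with the B cell list. As B cell sums there were at most 8.39 CPM and Ly6d at most 3.01 CPM, this value cannot show whether Ly6d follows B cell genes. Ly6c2 and Ly6i had r = -0.15 and 0.1 with the neutrophil list, and none of these relations passed. Of 7 neutrophil genes tested, 2 passed (Cxcr2 highest at 5.15, Il1r2 lowest at 0.04), while the defining gene Ly6g was at 0 in all 16 tumors. Of 8 monocyte genes, 3 passed higher and 1 lower (Chil3 highest at 3.57, Cx3cr1 lowest at -1.37). Their sum of 962 and 1221 CPM in the responders lay within the 671 to 1378 CPM of the other tumors. Most of that sum was Vcan, at a mean of 682 CPM, with a log2 fold change of -0.35 (SE 0.32, edgeR adjusted p = 0.52). The sum therefore mainly follows Vcan and is no measure of the monocyte genes as a set. The counts were 1 for neutrophils and 2 for monocytes without either responder. The neutrophil genes Cxcr2 and Retnlg and the B cell gene Blk passed the low-count filter only through the responders, so the filter bears on their counts. Over the 14 tumors outside the responders, Ly6c2 had r = 0.73 with the monocyte list as a description, with 0.92 within the controls against 0.45 within the non-responders. With group means subtracted, r was 0.79 (adjusted permutation p = 0.0435), rho was 0.76 (adjusted permutation p = 0.0897), and r was 0.72 without the 2 tumors of most extreme Ly6c2.

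Ly6d was also read beside keratinocyte genes, since tumors grew under the skin. Over the 14 tumors the r was 0.7, with 0.63 within controls and 0.9 within non-responders. With group means subtracted it was 0.72 (adjusted permutation p = 0.0637), on the failing side of the threshold, and 0.61 without the 2 tumors of most extreme Ly6d. The relation was not particular to keratinocyte genes. With adipocyte genes Ly6d had r = 0.64 over the 14 tumors, 0.76 within controls and 0.5 within non-responders. With group means subtracted, r was 0.67 for adipocyte genes (adjusted permutation p = 0.148) and 0.55 for colon epithelium genes (adjusted permutation p = 0.219). Non-responder replicate 12, with the highest Ly6d of its group (3.01 CPM), had the highest keratinocyte sum of all tumors, 60.3 CPM, and IgG control replicates 7 and 5, with the highest Ly6d of the controls (1.97 and 1.06 CPM), had sums of 37.2 and 41.4 CPM. The responders had keratinocyte sums of 25.5 and 15.2 CPM, of which Sfn alone made up 6.61 to 13.95 CPM, and 77.1 and 23.3 CPM of Ly6d. The part of keratinocytes in these Ly6d levels was not tested. Of 7 keratinocyte genes tested between responders and non-responders, Krtdap was lowest at -4.73 (SE 3.36, edgeR adjusted p = 0.379). Its median in non-responders was 0 CPM. Of these 7 genes, 1 passed (Sfn, 1.52). That count was 0 without non-responder replicate 10 or responder replicate 15, and 2 without IgG control replicate 1.

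The remaining lists moved as follows in responders against non-responders. Higher genes that passed numbered 6 of 8 for plasma cells (Jchain 8, Prdm1 lowest at -0.25), 6 of 6 for adipocytes (Adipoq 5.66, Fabp4 lowest at 4), 4 of 5 for colon epithelium (Krt8 5.99, Cdh1 lowest at 0.78), 4 of 8 for endothelium (Tek 2.73, Emcn lowest at 0.49), 3 of 8 for fibroblasts (Pi16 3.03, Cd34 lowest at -0.62) and 1 of 8 for macrophages (Mrc1 1.65, Fcgr1 lowest at -0.22). No gene of these lists passed lower. Most of these counts rested on responder replicate 15, without which they were 1 for adipocytes, 2 for colon epithelium and 0 for endothelium, fibroblasts and macrophages. The endothelial count was also 2 without non-responder replicate 10, 12 or 14, and leaving out responder replicate 16 or any of non-responder replicates 9, 10 and 14 gave a macrophage count of 0, while leaving out non-responder replicate 11 gave 3. None of 6 skeletal muscle genes passed (Myh4 -1.17, Acta1 -2.61). The plasma cell genes Tnfrsf17 and Derl3 passed the low-count filter only through the responders, so the filter bears on the plasma cell count. The adipocyte sum was 2287 CPM in responder replicate 15 and 404 CPM in replicate 16, against 16.8 to 144 CPM elsewhere, and so was also higher in the responder with more Ly6d. Ly6e had its closest list relation with macrophage genes, with r = 0.84 over the 14 tumors, 0.65 within controls and 0.98 within non-responders. With group means subtracted, r was 0.84 (adjusted permutation p = 0.0151) and rho was 0.78 (adjusted permutation p = 0.0897). Ly6e with fibroblast genes had r = 0.8 in the same way (adjusted permutation p = 0.0435). Without the 2 tumors of most extreme Ly6e, r was 0.76 for macrophage genes and 0.77 for fibroblast genes. The 3 tumors of high mitochondrial share, which had the lowest Ly6e, are among these 14 tumors, non-responder replicates 9 and 14 included. Their part in these relations was not tested.

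Of 35 other genes of the Ly6 and uPAR family matched in the table, 11 passed the filter on low counts. Between responders and non-responders 5 of these 11 were called higher and 0 lower. As 5 of the 11 (Ly6h, Ly6k, Ly6m, Lypd1 and Lypd6b) passed the filter only through the responders, that count is no measure of the family. The complement inhibitor gene Cd59a measured 2.9 and 10.1 CPM in the responders, against 0.36 to 2.77 in all other tumors, with a log2 fold change of 1.96 (SE 0.51, edgeR adjusted p = 0.0119). Lynx1, a modulator of nicotinic acetylcholine receptors, measured 8.97 and 18.4 CPM against 4.84 to 11.1, with a log2 fold change of 1.04 (SE 0.29, adjusted p = 0.0171). Ly6h, Ly6k and Lypd6b were also called, from levels of at most 0.101 CPM outside the responders to 0.394 to 1.12 CPM within them. Plaur, the urokinase receptor, and Gpihbp1, the capillary anchor of lipoprotein lipase, were the most abundant of the others, at a mean of 52 and 10.8 CPM, and differed by -0.16 (adjusted p = 0.68) and 0.2 (adjusted p = 0.842) on the log2 scale. Without responder replicate 15 the count of called genes was 2 (Ly6k and Lypd6b). Ly6g, Ly6l, Ly6g5c and Lypd4 were at 0 in all 16 tumors.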

How the data were processed

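Bulk RNA-seq of 16 tumors was analysed. Reads were aligned to GRCm38 (Ensembl release 91) by STAR 2.6, and the authors deposited RSEM 1.3.0 expected counts per gene, which were rounded here. STAR, RSEM and the build are as the submitters' processing notes give them. Of 53557 entries, 92 named no gene (at most 185 counts in a tumor) and were left out. Symbols and coordinates came from GENCODE M21 (GRCm38), matching 53274 identifiers. edgeR 4.0.16 in R 4.3.3 was run with TMM, its low-count filter and a single quasi-likelihood fit of the 3 groups; calls required an adjusted p under 0.05 plus an absolute log2 fold change over 1. CPM used TMM-scaled totals. Lengths are those of the longest coding GENCODE transcript, a choice made after seeing the data. Correlations used log2 CPM (prior count 2) and 100000 two-sided permutations within groups after subtracting group means, in place of the planned test pooled over both groups, which held the contrast that chose the members, and were computed with Python 3.11.15 and numpy 2.4.6. No 2 libraries were copies (over 120 pairs, chi-square divided by its degrees of freedom was at least 15.6). Each tumor came from its own mouse.

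The members, gene lists and tests were chosen with earlier results of these data known. Named are the members, wider family genes called or tested with a mean of at least 1 CPM, the 3 genes most like each member, and the genes of each list with the highest and lowest responder to non-responder log2 fold change; 1 gene that this rule covers is not reported here. Alternatives were DESeq2 1.42.0, median-of-ratios scaling, total counts, no filter, at least 10 counts in 8 tumors, only the groups compared, near copies summed, each tumor left out and, for correlations, a prior count of 0.5 and no IgG control replicate 1. Leaving out the 3 tumors with over 5% mitochondrial counts and the relations with lists were added after seeing the data. The steps were tested on simulated data.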

Additional observations from a re-analysis of the deposited data

Results flagged for a closer look

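One tumor stood apart from the others of its group in a Ly6 gene. Ly6d measured 3.012 CPM in aPD-1 non-responder replicate 12, and its gap to the next of the 6 non-responders was 0.84 of the group's range, above Dixon's critical value at the 95% level. Of 12 groups of values tested, 1 held such a tumor, where chance flags about 1 group in 20. The same tumor had the highest summed keratinocyte level of the 16, 60.3 CPM; the part of that in its Ly6d was not tested.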

How the results depend on the processing

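Of 286 member log2 fold changes of the responder comparisons under other settings, 269 kept their direction and their side of the call. Of 143 untested ones of non-responders against IgG controls, 137 kept their direction; the others were Ly6d at -0.63 without non-responder replicate 12 and Ly6e at -0.09 to -0.01 without IgG control replicate 1, 5 or 7 or non-responder replicate 11 or 13. The number of members called between responders and non-responders was 1 in place of 2 with near copies summed, and 1 to 3 with each tumor left out; against IgG controls it was 2 to 3. The count for the wider family was 2 to 6 with each tumor left out. Between responders and non-responders, signs reversed for members near 0: Ly6a lay between -0.0031 and 0.17 with each tumor left out (the negative value without non-responder replicate 10) and was -0.04 without the tumors of high mitochondrial share, Ly6e was -0.05 without those tumors, and Ly6c1 was 0.03 with total counts, 0.39 with near copies summed, and -0.29 to 0.07 with each tumor left out (0.07 without non-responder replicate 13 or responder replicate 16). With pooled tumors the number of member pairs passing was 2 under both alternatives, a count that the choice of members bears on, and with group means subtracted it was 1. DESeq2 gave Ly6d log2 fold changes of 5.92 and 6.36 with no adjusted p, so it enters no count of lost calls. Of 644 list counts, 56 moved by over 1.5 times, 18 of them without responder replicate 15. No paired analysis was possible because the labels number the tumors 1 to 16 across groups. With 2 responders, a call can rest on 1 tumor. Beyond the values given, the causes of these changes were not tested.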
